A study of Nematostella vectensis with 10 samples.

Results

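The genes described here are 180 of the 24520 genes of the *Nematostella vectensis* gastrula that were almost lost after knockdown of *Nvznf845* and that stood apart from other strongly falling genes in the numbering of the gene models. They were chosen from the measured values. The estimated reads of each gene were divided by a size factor per library (normalized counts), and a gene was counted as a faller when its mean over the control libraries was at least 50 normalized counts and its log2 ratio of knockdown to control, with 0.5 added to both, was −2 or lower in each of the 5 replicate pairs. Of 462 fallers, 280 had no faller at the next or the previous gene number, and 186 of these had a mean log2 ratio of −4 or lower, which is a 16-fold fall. The study's supplementary list of 42 published cnidocyte genes, called the published list below, holds 6 of the 186, among them *NvpaxA*, *mcol1* and *ncol3*, and these were left out. Since the ratios chose the members, their ratios are given below as a description with no test.

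The measurements came from poly(A) RNA of whole wildtype gastrulae collected at 28 hours post fertilization (hpf) and raised at 24 °C, with about 1000 injected embryos in each library. There were 5 libraries from embryos injected with a single *Nvznf845* shRNA and 5 from embryos injected with a control, which the labels call a scramble RNA and the methods an established control shRNA. Knockdown and control libraries are paired by replicate number, and the 2 libraries of a pair come from the same batch. Pairs 4 and 5 share a batch, and pairs 1, 2 and 3 each come from their own.

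Cnidocytes are the stinging cells of cnidarians. Each one builds a capsule, the nematocyst or the related spirocyst, from collagens and other secreted proteins inside a Golgi-derived vesicle, and discharges it explosively. In the *Nematostella* embryo they arise as scattered cells in the ectoderm, and *Nvznf845*, a zinc finger gene, and *NvpaxA*, a paired-box gene, are known regulators of their development. Knockdown by shRNA lowers the matching transcript through the embryo's own RNA interference machinery. The files give the members by number only, so no name, protein or role is assigned to any of them here. In RNA from whole embryos, fewer cells of a type and less RNA per cell cannot be told apart.

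Total estimated counts were 18891111 to 49293261 in the control libraries and 20848941 to 35960095 in the knockdown libraries. Between 6.24% and 67.4% of the counts fell on the 10 most abundant genes of a library, the most in both libraries of pair 3, so the scaling of that pair rests on a smaller part of its reads. The targeted gene was lowered in every pair. *Nvznf845* (NV2.17877) was at 1357, 1456, 1602, 1581 and 1577 normalized counts in control libraries 1 to 5 and at 257, 329, 179, 343 and 292 in the knockdown libraries, 18.5% of its control level. The 8 genes of the published list taken as cnidocyte markers, among them minicollagens of the capsule wall, had counts in every control library, with summed levels of 23696 to 33777 normalized counts in controls and 1003 to 1470 after knockdown. Their part in the fall of the members was not tested. Of the 37 genes of the published list with a number besides *Nvznf845*, 33 could be tested. By edgeR 24 of these were lower, against 4.23% of all genes tested, and 9 were not called. None was higher by edgeR, also at an unadjusted p under 0.05. The study had compared this list with the targets it called in these same samples, so the count is not independent of its result.

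All 180 members passed the filter on low counts, which the rule's control mean of at least 50 nearly fixes. They spanned a wide range of expression in control gastrulae, from 51.1 to 12601 normalized counts, with 52 members over 1000 and 20 under 100. Their median control level was 438 normalized counts, against 486 for the 15224 genes with a control mean of at least 50. Per transcript length the members ran from 0.522 to 321.5 TPM in controls, with a median of 13.6 TPM against 13.2 TPM for the same 15224 genes. The members thus included both abundant and weakly expressed genes.

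**Figure D1:**
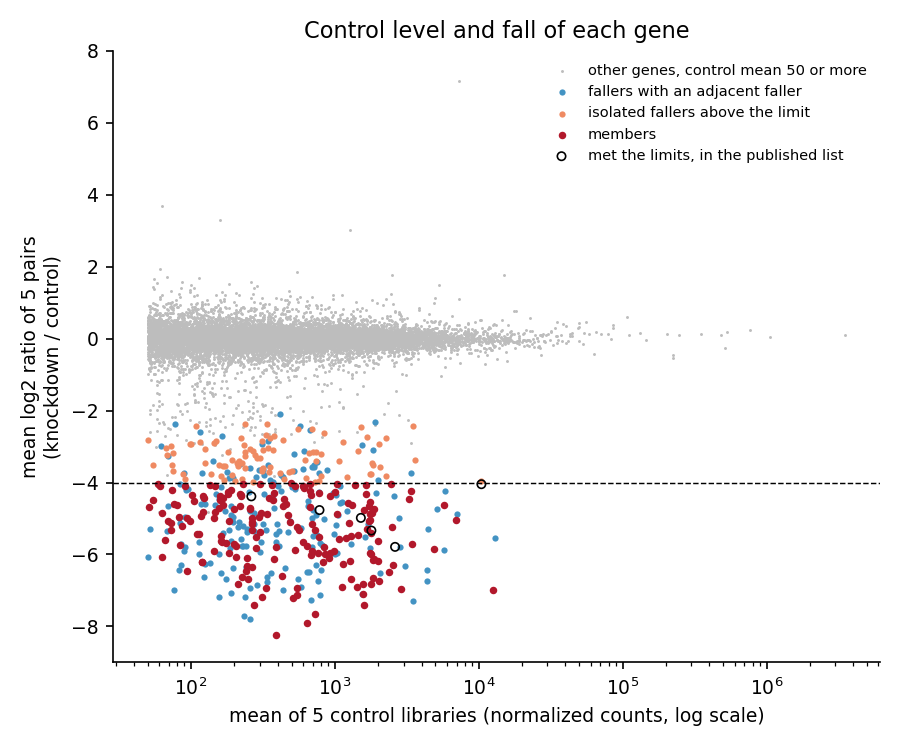
Mean normalized counts over the 5 control libraries (x axis, log scale) against the mean log2 ratio of the 5 pairs (y axis), 1 point per gene. The 180 members lie at or under the dashed line at −4, which is part of how they were chosen, and open circles are the 6 left out as members of the published list. The members spread from 51.1 to 12601 normalized counts. Blue points are fallers with an adjacent faller, orange points isolated fallers above the limit, and the grey points of the other genes lie mostly near 0.

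After knockdown the members kept a median of 2.86% of their control level, with a range from 0.287% to 7.99%. Their mean log2 ratios ran from −4.02 to −8.24 with a median of −5.14. At least a 32-fold fall, a mean log2 ratio of −5 or lower, was seen in 100 members, a ratio of −6 or lower in 44 and one of −7 or lower in 9. In each of the 180 members every knockdown library lay under every control library, a separation that 4.77% of the 19001 tested genes showed, and which the rule nearly fixes. All 180 were called lower by edgeR at the study's thresholds (adjusted p up to 0.05, fold change of 1.5 or more), where 4.23% of the tested genes were. The median edgeR log2 fold change was −5.11 for the members and 0.0099 for all genes tested. The members used this same contrast, so these counts describe the choice and carry no independent weight.

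Together the members took 0.538%, 0.851%, 0.280%, 0.756% and 0.851% of all estimated counts in control libraries 1 to 5. In knockdown libraries 1 to 5 they took 0.0164%, 0.0237%, 0.0064%, 0.0172% and 0.0193%. Replicate 3 was the lowest in both groups. The 10 most abundant genes of a library took their largest share of counts there, and their part in these low values was not tested. On the scale that sets libraries to a common size, the summed level was 158629 ± 20009 normalized counts in controls and 4262 ± 588 after knockdown (SD, n = 5 each). On that scale control replicate 3 was still the lowest of its group, at 129909. Knockdown replicate 3 was at 4608, within a range of 3499 to 4907. The 10 most abundant members held 30.4% of the summed control level.

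**Figure D2:**
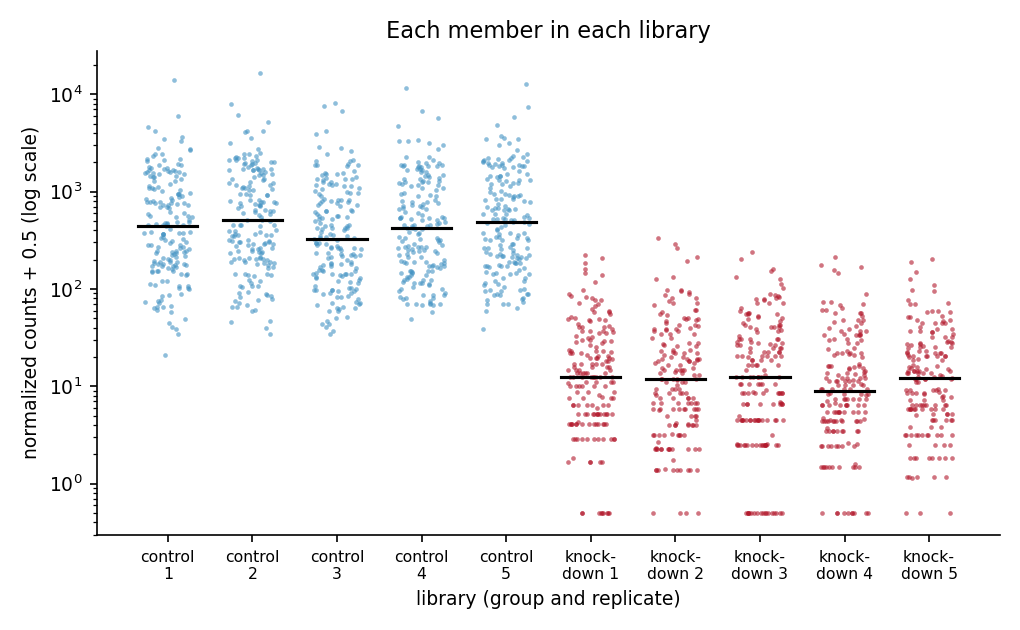
Normalized counts plus 0.5 (y axis, log scale) of each of the 180 members in each of the 10 libraries (x axis), with a black line at the median. The medians are 327 to 505 normalized counts in the 5 control libraries (blue) and 8.42 to 12.1 in the 5 knockdown libraries (red), before 0.5 was added. The lowest row of points holds members with no count.

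The most abundant member was NV2.9746, which alone held 7.94% of the summed control level. It was at 13933, 16612, 8071, 11558 and 12834 normalized counts in control libraries 1 to 5 and at 147, 71.6, 127, 62.5 and 96.3 in the knockdown libraries. The lowest control library, that of replicate 3, was still far above the highest knockdown library. Its level after knockdown was 0.801% of control, and its edgeR log2 fold change was −6.97 (standard error 0.319).

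NV2.18052 was at 5940, 7946, 6756, 6785 and 7395 normalized counts in controls and at 183, 291, 242, 156 and 202 after knockdown. NV2.20021 was at 4214, 5150, 7488, 5744 and 5839 in controls and at 222, 333, 202, 214 and 189 after knockdown. These members, with 3.08% and 4.08% of their control levels left, kept more than NV2.9746 did. Per transcript length NV2.20021 was the most abundant member in controls, at 321.5 ± 87.5 TPM against 296 ± 109 TPM for NV2.9746 (SD, n = 5 each), a difference within the spread between libraries.

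NV2.10332 had 4206 to 6097 normalized counts over the controls and 59.6 to 118 after knockdown, 1.76% of its control level. NV2.3555 had 2727 to 3865 and 33.2 to 98.1, and NV2.10077 had 1639 to 4117 and 11.7 to 34.4. NV2.4235 and NV2.6716 had control means of 3392 and 3287 normalized counts and kept 5.40% and 4.50%. Among the 8 most abundant members the retained share thus ran from 0.80% to 5.40%. In none did the groups overlap, which the rule nearly fixes and which 4.77% of the 19001 tested genes also showed.

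The deepest fall was that of NV2.6749. It was at 264, 392, 347, 386 and 573 normalized counts in controls and at 1.32, 2.18, 0, 2.13 and 0 in knockdown libraries 1 to 5, with no count in replicates 3 and 5. Over the 5 libraries of each group there were 2256 counts in controls and 5 after knockdown. Divided by the summed size factors of each group, 0.245% of the control counts were left. The 95% exact interval, which covers counting error only, runs from 0.0794% to 0.572%. Its edgeR log2 fold change was −8.44 (standard error 0.429), a value that depends on how counts of 0 are handled.

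NV2.11725 was at 673, 747, 624, 554 and 591 normalized counts in controls and at 0, 6.19, 12.1, 0 and 5.98 after knockdown. Its ratio ran from −10.4 in pair 1 to −5.63 in pair 3, so the mean of −7.89 combines libraries with no count and libraries with a few counts. NV2.4963 was more even, at 424 to 948 in controls and 1.33 to 5.30 after knockdown, with log2 ratios between −7.32 and −8.66 in the 5 pairs. It kept 0.449% of its control level, and counting error alone allows 0.256% to 0.73% (95% exact interval).

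NV2.3157 fell from 272 ± 69.7 to 1.71 ± 1.62 normalized counts, with no count in knockdown replicates 3 and 4 (SD, n = 5 each). NV2.11723 fell from 1597 ± 194 to 10.1 ± 5.02, and NV2.9872 from 515 ± 83.3 to 4.61 ± 3.54 (SD, n = 5 each). Of these, NV2.11723 had the most counts left, 49 over the 5 libraries against 10 and 22, so its level of 0.617% of control (95% exact interval 0.456% to 0.816% for counting error) is the best measured.

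Counts left after knockdown were few for many members. Over the 5 knockdown libraries the members had 3 to 1167 counts with a median of 53.5, and 10 members had 10 or fewer. At least 1 knockdown library without a count was found in 33 members, and in a single library this held for 3 (replicate 5) to 18 members (replicate 3, the library of the smallest effective size). The least covered was NV2.8704 with 3 counts left, 0.198% to 2.84% of its control level by the same kind of interval. Below a few counts the order of the deepest falls cannot be settled at this depth. At the other end, 56 members had 100 or more counts left, so a remaining level under 8% of control was measured, not merely bounded, for these.

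The members near the limits of the rule show how sharp it is. Just inside the limit of −4 were NV2.12063, NV2.2780 and NV2.13424, with mean log2 ratios of −4.02, −4.03 and −4.04. Just outside were NV2.23629, NV2.931 and NV2.20489, with −3.98, −3.98 and −3.96. The last was as abundant as the leading members, at 10365 ± 822 normalized counts in controls and 673 ± 124 after knockdown (SD, n = 5 each), and its number precedes that of *NEP3*, a nematocyst expressed protein gene of the published list. The lowest control mean was 51.1 normalized counts (NV2.7030), and the nearest gene under the minimum that met the rest of the rule was NV2.11028 with 44.8. The weakest single pair of any member was −2.17 (NV2.11288), and 3 further genes had a mean of −4 or lower but a pair above −2, the nearest being NV2.8462 at −1.58. Neighbouring fallers kept 140 genes out of the group whose mean ratio was also −4 or lower.

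The fall was seen in every pair, with differences between pairs. The median log2 ratio of the members was −5.10, −5.15, −4.78, −5.37 and −5.34 in pairs 1 to 5, against medians between −0.04 and 0.10 for all genes with a control mean of at least 50. Pair 3 was the weakest pair for 87 of the 180 members and pairs 1, 2, 4 and 5 for 42, 18, 19 and 14. *Nvznf845* itself had log2 ratios of −2.40, −2.14, −3.16, −2.20 and −2.43 in pairs 1 to 5. The targeted transcript was thus lowest relative to control in pair 3, where the median of the members was highest. In that pair the median control level of the members was 327 normalized counts, against 421 to 505 in the other pairs. Their median knockdown level was 12.1 there, against 8.42 to 11.9. A link between the 2 orders was not tested. In 102 members the ratio was −4 or lower in all 5 pairs, and the SD of the 5 ratios had a median of 0.74.

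**Figure D3:**
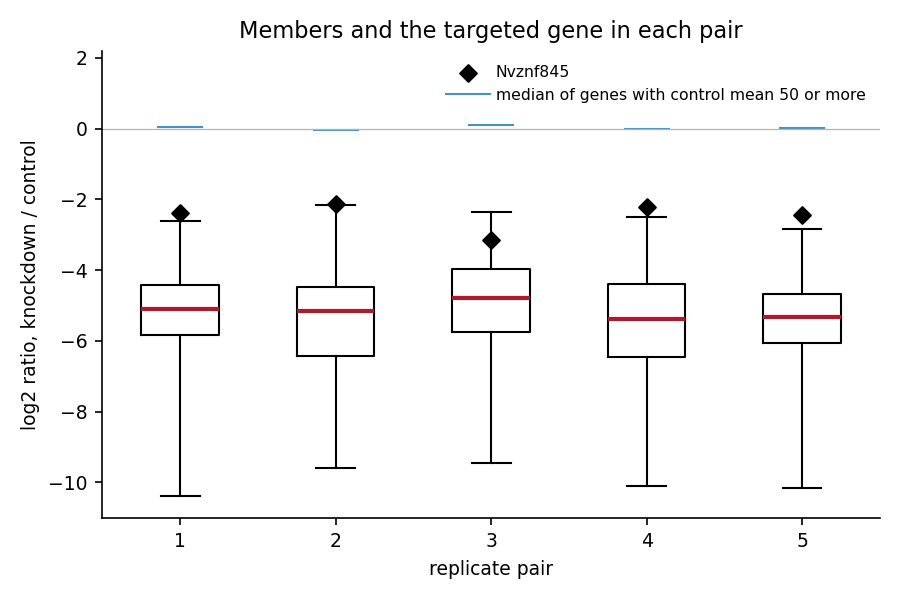
Log2 ratio of knockdown to control (y axis) in each replicate pair (x axis). Boxes run from the 25th to the 75th percentile of the 180 members with the median in red, whiskers reach the lowest and the highest member, diamonds mark *Nvznf845* and blue bars the median of genes with a control mean of at least 50. The member medians lie between −4.78 and −5.37, below *Nvznf845* in all 5 pairs.

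A reading that the choice did not use came from leaving out 1 pair at a time. The rule was applied to the other 4 pairs and the ratio was then read in the pair left out. With pair 1 left out, 172 genes were chosen, and 145 of them had a log2 ratio of −4 or lower in pair 1, where 1.96% of 15233 genes with enough control counts did. With pair 2 left out it was 155 of 176 genes (2.06% of all), with pair 4 left out 159 of 179 (2.31%) and with pair 5 left out 153 of 168 (2.22%). With pair 3 left out it was 122 of 183 (1.96%), or 66.7% against 84.3% to 91.1% in the other pairs. The median ratio in the pair left out was −5.08, −5.15, −4.70, −5.34 and −5.41 for pairs 1 to 5. A ratio of −2 or lower was reached by all genes chosen in this way, except for 2 of the 183 in pair 3, where the highest ratio was −0.76. The 5 readings share 3 of their 4 choosing pairs with each other and are not independent of one another. Pairs 4 and 5 share a batch, so each was read in genes chosen partly on a pair of its own batch. The size factors came from all libraries, the pair left out included.

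Levels in the control libraries themselves show how the members vary before any knockdown. The ratio of the highest to the lowest control library had a median of 1.84 among members, and it was 3 or more in 10 of them, the largest being 7.01 (NV2.11288). Divided by its own mean over the controls, the median member was at 1.05, 1.18, 0.765, 0.958 and 1.05 in control libraries 1 to 5. Across all genes with a control mean of at least 50 these medians were 1.01, 1.03, 0.946, 0.997 and 1.00. The control library of replicate 3 was the lowest of the 5 for 118 members (65.6%, against 42.4% of those genes), and that of replicate 2 the highest for 94 (52.2% against 26.9%).

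In isolated fallers above the limit the relative level was 1.05, 1.17, 0.784, 0.941 and 1.05 in control libraries 1 to 5, and in fallers with an adjacent faller it was 0.931, 1.16, 0.818, 0.984 and 1.07. Both kinds were highest in replicate 2 and lowest in replicate 3 like the members, but in replicate 1 the fallers with an adjacent faller lay below their mean and the members above it. The 10 most abundant genes took 33.3%, 10.8%, 56.0%, 7.95% and 6.99% of the counts in these libraries. That share was highest where the members were lowest, in replicate 3, but did not follow the members' level over the other 4, and its part was not tested. The coefficient of variation over the controls had a median of 23.7% for members and 18.8% for genes with a control mean of at least 50.

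**Figure D4:**
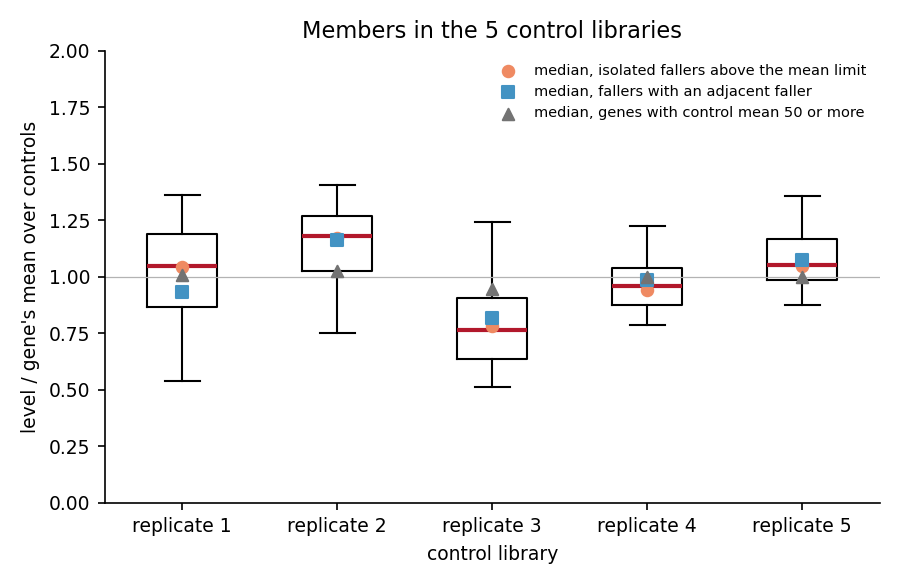
Level of each member divided by its mean over the 5 control libraries (y axis) in each control library (x axis). Boxes run from the 25th to the 75th percentile of the 180 members with the median in red and whiskers from the 5th to 95th percentile. Symbols give the medians of the 94 isolated fallers above the limit, the 182 fallers with an adjacent faller and the 15224 genes with a control mean of 50 or more. Falling genes of all 3 kinds lie under the other genes in replicate 3 and above them in replicate 2.

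Whether members differed between the 4 batches was tested with edgeR in a fit of condition and batch over all genes, since the rule uses ratios within pairs and not differences in level between batches. None of the 180 members was called at an adjusted p of 0.05, against 2.61% of all genes tested, and the lowest adjusted p of a member was 0.077 (NV2.975, edgeR). At an unadjusted p under 0.05 there were 31 members (17.2%, against 18.4% of all genes). The DESeq2 likelihood ratio test called 4 members and limma-voom 1. Leaving out 1 library of pair 3 moved the count, to 16 members without its knockdown library and 6 without its control library, and all genes were also called more often then (7.60% and 8.87%). With both libraries of pair 3 left out it was 1 member and 2.88% of all genes. The batches of pairs 1, 2 and 3 hold only 1 library of each group, so a batch cannot be told apart from its embryo pools. By the choice, nearly all counts of the members lay in the control libraries, so the knockdown libraries added little to the comparison of batches. The lack of called members therefore does not show that they were even between batches.

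Most members have a single annotated transcript, 146 of 180 (81.1%, against 71.1% of the genes with a control mean of at least 50). The share was similar, 81.9%, in isolated fallers above the limit, and 75.3% in fallers with an adjacent faller. The other 34 have 103 transcripts, of which 87 had a control mean of at least 10 normalized counts. Of the 87, 83 had a log2 ratio of group means of −2 or lower and 69 one of −4 or lower. Salmon divides reads among the transcripts of a gene, so single transcripts are less certain than their sum.

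The clearest exception was NV2.12063, the member nearest to the limit. Its transcript 2, which held 92.4% of the gene's control counts, was at 569, 638, 178.5, 402 and 505 normalized counts in controls and at 0, 2.32, 3.42, 0 and 0 after knockdown. Its transcript 1 was at 46.4, 37.9, 36.5, 39.4 and 28.3 in controls and at 27.9, 31.6, 33.3, 20.5 and 24.1 after knockdown. Transcript 2 was all but lost in every library, while transcript 1 overlapped between the groups and made up nearly all that was left of the gene. The transcripts are 1301 and 1400 bases long.

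In 5 members, 3 transcripts each held at least 10% of the gene's control counts. The most abundant of these were NV2.1122, NV2.20023 and NV2.18783, whose sums fell from 1986 to 39.9, from 1759 to 77.3 and from 680 to 33.0 normalized counts. In NV2.7167, with 13 annotated transcripts, the leading transcript fell from 832 to 21.4 normalized counts, while transcript 8 had a mean of 10.8 after knockdown, above its control mean. That mean came from a single library, 54.1 normalized counts in knockdown replicate 3, with none in the other 4.

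The median length, weighted by the level of each transcript in controls, was 2398 bases for members and 2502 bases for genes with a control mean of at least 50, with the 25th and 75th percentiles of the members at 1790 and 3137 bases. The longest members were NV2.2780 (7248 bases) and NV2.3202 (7060 bases) and the shortest NV2.17108 (517 bases) and NV2.10468 (688 bases).

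The longest member was also the weakest per length. NV2.2780 was at 20.3, 34.2, 63.1, 86.0 and 89.1 normalized counts in controls, 0.522 TPM on average, and at 1.19, 0.884, 2.02, 3.91 and 11.3 after knockdown. Its knockdown library of replicate 5 was the highest and its ratio there, −2.93, the weakest of its 5 pairs. NV2.3202 fell further, from 2360 ± 733 to 25.4 ± 6.84 normalized counts, and the short NV2.17108 and NV2.10468 from 73.0 ± 19.4 to 2.00 ± 1.31 and from 225 ± 77.7 to 2.48 ± 2.49 (SD, n = 5 each). Among these longest and shortest members, falls of over 90-fold were those of NV2.3202 (93.1-fold) and NV2.10468 (90.6-fold). NV2.2780 fell 15.2-fold, and NV2.17108 also fell less than these. No relation of fall to length is drawn from these few members.

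The gene numbers place the members among genes that mostly did not move. Whether the numbers follow the order along the genome is not stated in the sources used here, and no coordinates were used. The 316 genes numbered next to a member had a median edgeR log2 fold change of −0.04 over the 208 that were tested. Of the 208, 30 were called lower (14.4%) and 5 higher, where 4.23% of all genes were lower. The share over all genes includes the 180 members, all called lower, which the counts by distance leave out. At a distance of 2 numbers 30 of 254 genes were lower (11.8%), at 3 numbers 20 of 251 (7.97%), and at 4 to 10 numbers between 3.17% and 5.75%. Over 10 numbers away from any member the share was 2.85% of 16534 genes. Control levels differed as well. The median control mean was 39.9 normalized counts next to a member, 105 to 241 at 2 to 10 numbers and 308 beyond. The shares were not adjusted for this difference. The rule removed members with a faller next to them, so the share at a distance of 1 is held down by the choice.

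**Figure D5:**
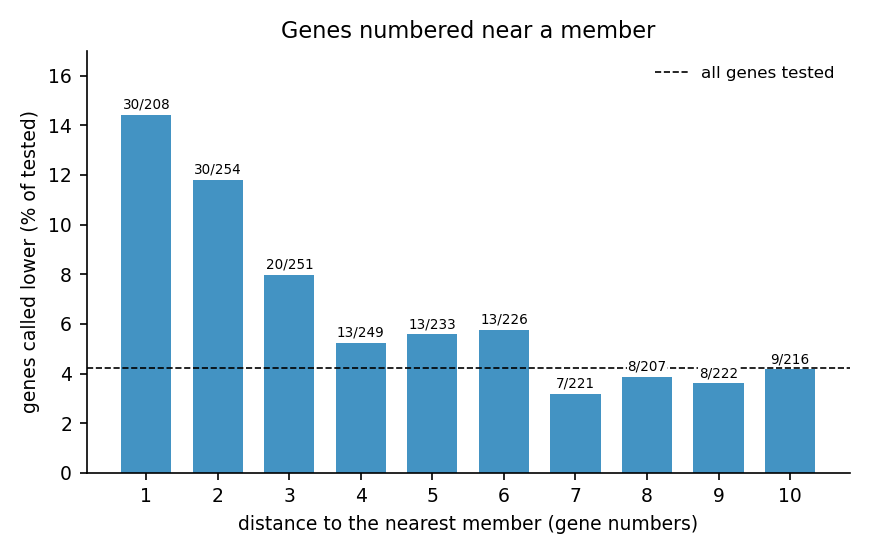
Genes called lower by edgeR as a percentage of those tested (y axis) by distance in gene numbers to the nearest member (x axis), with the number called and tested over each bar. The dashed line is the share over all genes tested, 4.23%, which includes the 180 members, while the bars leave them out. Over 10 numbers away from any member the share is 2.85%. The share is 14.4% next to a member and between 3.17% and 5.75% from 4 to 10 numbers away.

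Several members counted as isolated only because a low gene lies beside them. There were 12 genes next to a member that met the ratio limit in every pair but not the minimum of 50 normalized counts. Of the 30 called neighbours, 14 reached this minimum and were not fallers because some pair missed the ratio limit. Their edgeR log2 fold changes included −2.69 (NV2.6073) and −0.64 (NV2.17121). Beside these 14, the isolation of a member rests on the ratio limit. The other 16 had a control mean under the minimum. These include NV2.9747, which sits between the members NV2.9746 and NV2.9748. It was at 38.5, 27.4, 36.7, 33.5 and 37.9 normalized counts in controls and had a single count after knockdown, in replicate 4 (log2 fold change −6.77, adjusted p = 1.43e-06 from edgeR). On the other side, NV2.9745 had 156 counts over the controls and 4 after knockdown, too few to be tested. NV2.17353, next to the member NV2.17352, went from 42.7 ± 11.5 to 0.195 ± 0.437 normalized counts (SD, n = 5 each). By edgeR this was −7.07 on the log2 scale (adjusted p = 2.27e-06). NV2.17352 itself fell from 1878 ± 420 to 27.2 ± 9.87 (SD, n = 5 each). The member NV2.9748 fell from 162 to 4.03. Whether such neighbours are close copies that share reads was not tested.

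There were 10 pairs of members 2 numbers apart, which make up 20 of the 180, and in the 8 pairs with a gene in the files between them that gene had a control mean of 0.735 to 34.8 normalized counts, under the minimum. The mean log2 ratios of such pairs differed by 0.0740 to 2.10, with a median of 0.81. The closest pair was NV2.20021 and NV2.20023, with ratios of −4.25, −3.95, −5.21, −4.74 and −4.94 in pairs 1 to 5 for the first and −3.97, −3.80, −5.07, −5.02 and −4.85 for the second. The members NV2.11723 and NV2.11725, both among the 6 deepest falls, form another. NV2.5192 and NV2.5196 lie 2 numbers to either side of *NVE3843* (NV2.5194), a gene of the published list with a mean log2 ratio of −4.77. NV2.21273 lies 2 numbers from *NVE5730* (NV2.21271), a gene of that list with a mean ratio of −2.24 that was not a faller. NV2.23902 lies directly next to *NVE26200* (NV2.23901), also of that list, which had 26 counts over the controls and 2 after knockdown (mean ratio −2.88) and so was under the control minimum. With no faller allowed within 2 numbers, 145 of the 180 members were left.

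A member can also lie beside an abundant gene that did not move. NV2.12063 is followed by NV2.12064, at 8990 ± 1169 normalized counts in controls and 9673 ± 350 after knockdown (SD, n = 5 each). Its edgeR log2 fold change was 0.11, with an adjusted p = 0.833. For 35 members no gene at the next or previous number could be tested, so their isolation rests on genes with too few counts or on numbers not used here.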

How the data were processed

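The data were 10 libraries of paired-end reads of 150 bases from pools of injected embryos, in 2 groups of 5. Per the labels and the methods, reads were filtered and trimmed by the sequencing provider and quantified by the authors with Salmon on Galaxy against Nvec200 (the Salmon version is not given in the sources used here). Each deposited table lists, per transcript, Salmon's estimated counts (often fractional) and TPM, as the authors made them. Gene values are sums of the estimated counts over 35819 transcripts of 24520 genes, joined by characters 5 to 10 of the transcript name. Size factors were medians of ratios over the 20303 genes above 0 in all libraries.

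The tests used whole-number rounding of these sums in edgeR 4.0.16 under R 4.3.3 (TMM, filterByExpr with a minimum count of 10, robust glmQLFit, glmQLFTest, Benjamini-Hochberg adjustment over 19001 genes), with condition as the only term, or with condition and batch for the test of the 3 batch terms together. Standard errors are the fold change over the square root of F. The alternatives used DESeq2 1.42.0, limma 3.58.1 (voom, and log2 of TPM + 1), other normalizations, no count filter, the replicate or batch block, and left-out libraries. Intervals on counts are exact (95%) and cover counting error only. P-values measure the spread between these embryo pools. The edgeR script was tested on simulated data.

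The pairing comes from the methods, which state paired replicates, and from the shared batch labels. The correlation between the partners' deviations from their group means was, for pairs 1 to 5, 0.474, −0.0386, 0.191, 0.164 and 0.609. No library was a duplicate of another in its group, since the median chi-square per gene was 3.09 to 36.5 times that of sampling noise alone.

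The members and lists were chosen with earlier results of these data known. Named were the 8 members with the highest control level, the 6 with the lowest mean ratio, 3 on either side of the limit of −4, the 3 with the most transcripts of at least 10% of the control counts, the 2 longest and 2 shortest, the 3 with the most changed neighbours, and up to 4 called between batches (none was). NV2.975, NV2.7030, NV2.7167, NV2.8704, NV2.11288, the members near genes of the published list and the neighbouring genes were singled out after their values were seen. The lists of neuronal, gland and muscle genes planned were not run, as the reference table (assembly jaNemVect1.1) pairs 0 of these numbers with a name; no sequences or coordinates are given.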

Additional observations from a re-analysis of the deposited data

Results flagged for a closer look

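In 3 of 59 groups of 5 libraries examined, 1 library lay apart from the other 4 by more than Dixon's 95% limit of 0.71 of the range, where chance gives about 1 group in 20. In NV2.20021 the knockdown library of replicate 2 was at 332.7 normalized counts, against 189.3 to 221.6 in the other knockdown libraries. In NV2.20023, a member 2 numbers away, the same library was at 127.3, against 56.4 to 75.8. In *NvpaxA* (NV2.6786), which is not a member, the control library of replicate 1 was at 2039 normalized counts, against 2635 to 2875 in the other controls. In none of the 3 did the separated library reach the other group.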

How the results depend on the processing

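All 180 members were called lower by edgeR with RLE or library-size scaling, without the count filter, with the batch block, and without any single library or pair 3, as also by DESeq2 and limma-voom. With the replicate block 180 were called, with a median log2 fold change of −5.13 against −5.11. The call of NV2.2780 was lost on log2(TPM + 1) with limma (log2 fold change −0.52, adjusted p = 0.00087), where the median of the members was −3.20, since adding 1 TPM shrinks low genes. Within the batch of pairs 4 and 5, an alternative chosen after seeing the data like that without pair 3, the call of NV2.25947 was lost (−3.58, adjusted p = 0.387 from edgeR). Leaving out 1 library moved the median between −5.03 and −5.15. The log2 fold changes of the 27 named genes kept their call in 539 of 540 alternatives.

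The rule gave 180 members with TMM-scaled sizes, 174 with a pseudocount of 1, 169 with a control mean of at least 100 (160 shared), 181 with no control minimum (166 shared), 145 with no faller within 2 numbers and 168 to 183 with 1 pair left out.

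The count of members called between batches depended on the setting, and the cause was not tested. It was 0 with TMM, RLE or no filter, 1 with limma-voom, 4 with DESeq2, 0 to 16 with 1 library left out and 1 without pair 3. It was 140 with scaling by library size alone, where 77.3% of all genes were called, and 143 in the control libraries alone, where 60.3% were and where only 1 residual degree of freedom is left among 5 libraries. The members' mean share of control counts was 0.606% to 0.749% with 1 library left out. Depth limits the members with few counts left, where a fold change depends on the handling of 0.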
